A study of Homo sapiens with 15 samples.

Results

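Integrins, cadherins, CADM proteins and claudins are membrane proteins through which a cell holds to the extracellular matrix or to its neighbours. Their genes were taken from the table by symbol (ITGA, ITGB, CDH, CADM and CLDN genes with the standard numbering, and ITGAV, ITGAE, ITGAL, ITGAM and ITGAX), and a gene was kept where its mean over the 15 libraries was at least 5 counts. Of 75 rows of these families, 28 met this limit, out of 13665 rows of the whole table that met it and 25737 listed. The 28 were 10 of 16 integrin alpha chains, 6 of 8 integrin beta chains, 4 of 23 cadherins, 2 of 4 CADM genes and 6 of 24 claudins. The members just inside the limit were CADM4 (mean 7.53 counts) and ITGA4 (7.67), and the rows just outside were CADM3 (4.07), CLDN1 (3.33) and ITGB7 (2.93). CDH1, which encodes the epithelial E-cadherin, was outside with a mean of 0.80 counts, and 10 rows had no count in any library.

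The cells were U87MG, an established human line from a malignant glioma, infected with lentivirus and collected 24 hours later. Each of the 5 groups had 3 libraries, labelled as a control virus (GFP) or as overexpressing ID1, ID2, ID3 or ID4, inhibitors of DNA binding, and all 5 groups therefore carried a lentivirus and came from the same line. The labels do not say that the 3 libraries of a group came from separate cultures, so p-values measure the spread between these libraries, which may be technical. Nothing in the labels gives the cell clone, the promoter of the virus or the share of cells infected. In RNA from bulk cells, fewer cells that express a gene and less RNA per cell cannot be told apart.

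An integrin is a pair of an alpha and a beta chain that grips matrix proteins outside the cell and, through talins and kindlins, the actin skeleton inside. The beta 1 chain pairs with many alpha chains into receptors for collagen, laminin and fibronectin, while alpha V pairs with beta 3, beta 5 and beta 8 into receptors that read the RGD motif of vitronectin, fibronectin or latent TGF-beta. Cadherins join like cells through catenins, CADM proteins are immunoglobulin-like molecules that bind neighbours and keep 4.1-type and MAGUK scaffolds at the membrane, and claudins form the strands of tight junctions. Glioma cells invade brain tissue, and N-cadherin and integrins containing alpha V are known from such cells. ID proteins are helix-loop-helix factors without a DNA-binding region, which keep E proteins from binding the E-box, CANNTG.

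Levels are given in CPM, the count scaled to the total of its own library. Totals were 11089044 to 15148979 counts, so that 3 counts, the limit that a count of 0 allows, equalled 0.198 to 0.271 CPM, and these limits cover counting error only. The third ID2 library stood farther from its replicates than any other library did. As a check of the labels, ID4 rose from 0.0787 to 223 CPM in the libraries labelled ID4 and ID3 from 221 to 313 CPM in those labelled ID3. ID3 was also higher in the libraries labelled ID2, at 287 CPM (log2 fold changes of 0.39 for ID2 and 0.48 for ID3), and ID4 was called higher for ID2 and ID3 at 3 to 10 counts, so the rise of ID3 was not limited to its own label. ID1 went from 344 CPM in GFP to 250 CPM in the libraries labelled ID1, and ID2 from 85.7 to 44.9 CPM in those labelled ID2. The gene ID2 was called lower in every ID-labelled group, at log2 fold changes of -1.34, -0.92, -0.90 and -1.26 for ID1 to ID4. The gene ID1 was called lower for ID1 (-0.49) and for ID4 (-0.30). The labels ID1 and ID2 were thus not borne out by the counts. Every direction given for ID1 and ID2 is that of libraries so labelled. Whether a viral transcript would be counted under the gene's own symbol is not given in the sources used here. CDKN2A and CDKN2B, which this line lacks, had 0 counts in every library, VIM had mean levels of 3670 to 4440 CPM, and the astroglial marker GFAP had at most 4 counts in any library.

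Counts were normalized by the TMM method and fitted with edgeR, with 1 mean per group over all 15 libraries, and a gene was called where the quasi-likelihood test with Benjamini-Hochberg adjustment over all 13665 rows gave an adjusted p under 0.05. In the libraries labelled ID1, 13 of the 28 adhesion genes were called against GFP (46.4%, 10 higher and 3 lower), where 21.6% of all tested genes were called (11.8% higher and 9.81% lower). In those labelled ID2, 16 were called (57.1%, 11 higher and 5 lower), against 33.8% of all tested genes (17.5% higher and 16.3% lower). For ID3 the count was 11 (39.3%, 8 higher and 3 lower), against 27.4% (14.5% and 13%), and for ID4 it was 10 (35.7%, 8 higher and 2 lower), against 20.6% (11.4% and 9.18%). The 4 comparisons share the GFP libraries and are not independent of each other. The median log2 fold change of the 28 genes was 0.13, 0.30, 0.22 and 0.17 in the same order, where that of all tested genes was 0.00, -0.01, 0.00 and 0.00. The median size of the change, without its sign, was 0.42, 0.44, 0.28 and 0.23 for the adhesion genes and 0.17, 0.22, 0.19 and 0.17 for all tested genes. Their counts were not high ones, with a median of 128 against 243 for all tested genes.

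The direction differed by family. Integrin beta chains were higher where they were called, 4, 5, 4 and 4 of 6 against GFP for ID1 to ID4, with median log2 fold changes of 0.90, 0.74, 0.64 and 0.47. Integrin alpha chains went both ways, with 3 higher and 1 lower for ID1, 5 and 2 for ID2, 4 and 1 for ID3 and 2 and 0 for ID4, among 10. The 2 CADM genes were lower wherever they were called, while cadherins and claudins had at most 3 calls in a comparison. The test of any difference among the 5 groups called 18 of the 28 (64.3%), where 43.4% of all tested genes were called. The genes it did not call were ITGA4, ITGA10, ITGAE, ITGB4, CDH18, CDH24, CLDN4, CLDN7, CLDN15 and CLDN22.

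**Figure D1:**
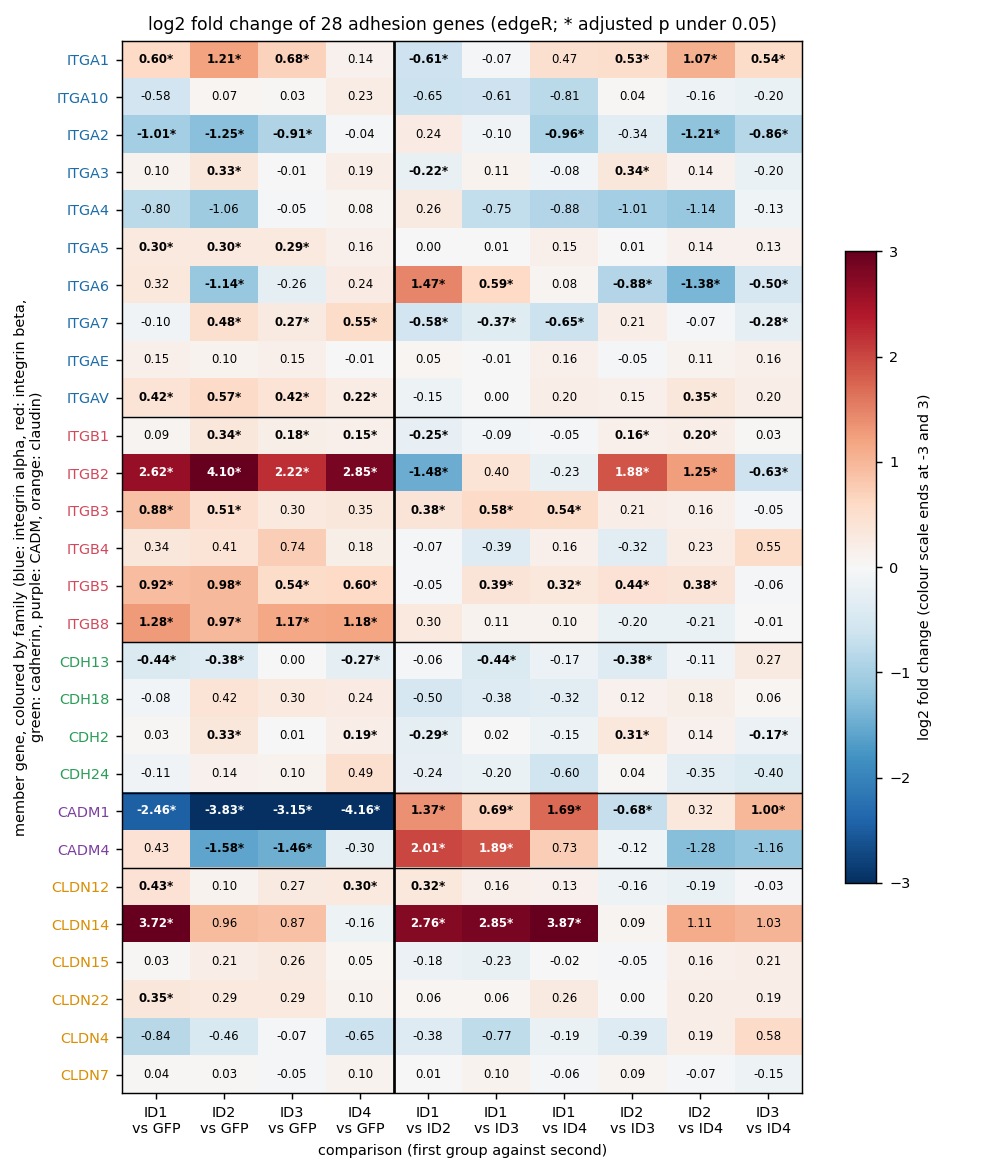
Log2 fold change of the 28 adhesion genes (rows, by family) in the 4 comparisons with GFP and the 6 comparisons among ID groups (columns), as a colour and a number, with an asterisk and bold type where the adjusted p was under 0.05. CADM1 runs from -2.46 to -4.16 and ITGB2 from 2.22 to 4.10 against GFP, and CLDN14 stands out in the comparisons that hold ID1.

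The beta chains that pair with alpha V were higher in the ID-labelled libraries. ITGB5 (chr3:124480795-124620265, minus strand; coordinates here and for the genes below are GRCh37) encodes the beta 5 chain of a vitronectin receptor. Its 3 GFP libraries were at 83.6, 90.2 and 87 CPM, the ID1 libraries at 170.7, 169.4 and 161.8, the ID2 libraries at 167.9, 175.5 and 165.4, the ID3 libraries at 124.7, 129.1 and 130.5, and the ID4 libraries at 135.9, 134.7 and 125.7. No ID-labelled library came near the GFP range, and the ID1 and ID2 libraries also lay above all those of ID3 and ID4. The log2 fold change against GFP was 0.92 ± 0.06 (standard error) for ID1, 0.98 ± 0.06 for ID2, 0.54 ± 0.06 for ID3 and 0.60 ± 0.06 for ID4 (edgeR adjusted p = 1.8e-11, 3.87e-12, 1.56e-07 and 4.54e-08).

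ITGB8 (chr7:20370325-20455377, plus strand) encodes the beta 8 chain, which with alpha V activates latent TGF-beta. It had 66, 38 and 45 counts in GFP, 152, 126 and 124 in ID1, 86, 124 and 113 in ID2, 115, 125 and 132 in ID3 and 127, 94 and 110 in ID4. The groups did not overlap with GFP, and among the ID groups no difference in ITGB8 was called. Mean levels were 3.85 ± 0.754 CPM (SD, n = 3) in GFP and 9.57 ± 0.412, 7.56 ± 1.18, 8.91 ± 0.952 and 8.85 ± 0.777 CPM for ID1 to ID4, with log2 fold changes of 1.28 ± 0.16, 0.97 ± 0.17, 1.17 ± 0.16 and 1.18 ± 0.17 (edgeR adjusted p = 3.15e-06, 7.58e-05, 9.95e-06 and 1.32e-05).

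ITGB3 (chr17:45331193-45391109, plus strand), the beta 3 chain shared by the vitronectin receptor and the platelet fibrinogen receptor, was at 6.90, 6.22 and 7.70 CPM in GFP and at 12.5, 13.2 and 13.4 CPM in ID1. The ID2 libraries were at 9.47, 8.59 and 11.3 CPM, the ID3 libraries at 8.39, 8.47 and 9.20 and the ID4 libraries at 8.13, 8.75 and 9.68. The ID1 libraries were the highest and none of the 12 overlapped with GFP, but the call was reached for ID1 (0.88 ± 0.13, edgeR adjusted p = 2.28e-05) and ID2 (0.51 ± 0.13, adjusted p = 0.00469) and not for ID3 (0.30) or ID4 (0.35). Their common partner ITGAV (chr2:187454737-187545628, plus strand) was at 37.3, 40.2 and 33.3 CPM in GFP. It was at 51.7, 47.7 and 51.1 CPM in ID1, 53.2, 58.3 and 51.8 in ID2, 50.0, 51.6 and 49.1 in ID3 and 42.9, 47.1 and 40.0 in ID4. The ID4 libraries reached down into the GFP range, which the others did not. The log2 fold change was 0.42 ± 0.08, 0.57 ± 0.08 and 0.42 ± 0.08 for ID1 to ID3 (edgeR adjusted p = 0.000334, 3.93e-06 and 0.000269). For ID4 it was 0.22 ± 0.08 (adjusted p = 0.0485), a call that was lost without GFP replicate 1 (adjusted p = 0.1) or 3 (0.214), without ID4 replicate 1 (0.103) or 2 (0.22), and under 3 other settings.

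**Figure D2:**
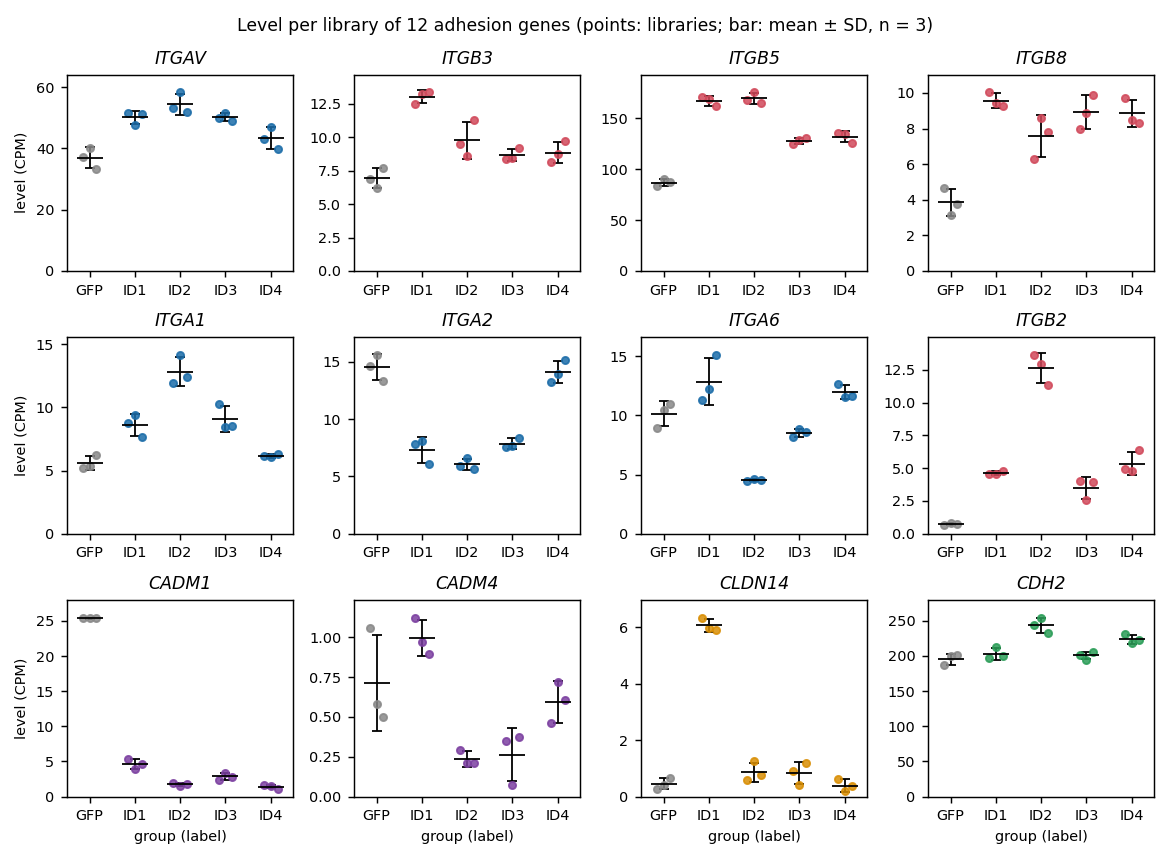
Level in CPM (vertical axes, from 0) of 12 adhesion genes in each library (points) by labelled group (horizontal axes), with the mean and SD of 3 libraries as bars. ITGB5, ITGB8, ITGB2 and CADM1 separate every ID-labelled library from GFP, ITGA6 is lowest in ID2 (mean 4.53 CPM), and CLDN14 is high in ID1 (mean 6.07 CPM).

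The beta 1 chain moved by less than ITGB5 and ITGB8, while some of its alpha chains, ITGA1, ITGA2 and ITGA6, had larger changes in some groups. ITGB1 (chr10:33176201-33294720, minus strand) was at 452.3, 473.5 and 447.6 CPM in GFP, 496.2, 498.7 and 492.5 in ID1, 586.0, 605.6 and 538.3 in ID2, 523.9, 529.8 and 527.5 in ID3 and 499.3, 506.0 and 520.1 in ID4. All ID-labelled libraries were above all GFP libraries. ITGB1 rose by a log2 fold change of 0.34 ± 0.05 for ID2 (edgeR adjusted p = 4.31e-06) and 0.18 ± 0.05 for ID3 (0.00583), and it was not called for ID1 (0.09). For ID4 the value of 0.15 ± 0.05 (edgeR adjusted p = 0.0288) was called with all libraries but missed the threshold whenever GFP replicate 1 or 3 or any of the 3 ID4 libraries was left out (adjusted p of 0.058 to 0.108). Genes of chromosome 10 had a median log2 fold change of -0.15, -0.18, -0.09 and -0.11 for ID1 to ID4, and the part of this shift in the values of ITGB1 was not tested.

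ITGA5, whose chain forms the fibronectin receptor with beta 1, lies on chromosome 12 (chr12:54789045-54813050, minus strand). Its libraries were at 34.9, 30.8 and 34.7 CPM in GFP, 41.1, 42.5 and 42.2 in ID1, 43.1, 37.5 and 42.1 in ID2, 40.8, 41.0 and 43.1 in ID3 and 37.3, 37.8 and 37.2 in ID4. ITGA5 was higher by 0.30 ± 0.07, 0.30 ± 0.07 and 0.29 ± 0.07 on the log2 scale for ID1 to ID3 (edgeR adjusted p = 0.00399, 0.00251 and 0.00454), and the 0.16 for ID4 was not called. ITGA7, which encodes the alpha chain of a laminin receptor of muscle, lies on the same chromosome (chr12:56078352-56110188, minus strand). It was at 27.8, 26.1 and 29.3 CPM in GFP, 27.1, 22.7 and 29 in ID1, 38.3, 36.4 and 40.5 in ID2, 36.5, 32.4 and 33.4 in ID3 and 40.8, 39.5 and 41.8 in ID4. The ID1 libraries of ITGA7 overlapped with GFP, and those of ID2 and ID4 lay well above it (0.48 ± 0.09 and 0.55 ± 0.09, edgeR adjusted p = 0.000124 and 5.47e-05). The rise of 0.27 ± 0.09 for ID3 (adjusted p = 0.0211) was lost without GFP replicate 1 (0.0556) or 2 (0.0906) or ID3 replicate 1 (0.098). Chromosome 12 genes had a median of 0.17, 0.19, 0.15 and 0.19 for ID1 to ID4, whose part in these values was not tested. The last 500 bases of ITGA7 also overlap METTL7B on the opposite strand, and whether counting used the strand is not given in the sources used here.

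ITGA3 (chr17:48133332-48167845, plus strand), the alpha chain of a laminin receptor, was at 79.0, 88.3 and 82.1 CPM in GFP, 91.2, 89.8 and 91.2 in ID1, 110.1, 103.9 and 96.0 in ID2, 92.3, 76.8 and 82.6 in ID3 and 101.3, 92.5 and 91.2 in ID4. It was called for ID2 (0.33 ± 0.07, edgeR adjusted p = 0.000769), where every library was above the GFP libraries. The values of 0.10, -0.01 and 0.19 for ID1, ID3 and ID4 were not called. Of the remaining alpha chains, ITGA10, which forms a collagen receptor of cartilage, had 22 to 49 counts and ITGA4, whose chain binds VCAM1, had 1 to 19 counts, and neither was called in any comparison.

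ITGA1 and ITGA2 encode the alpha chains of the 2 classical collagen receptors and are neighbours on chromosome 5, both on the plus strand and 30131 bases apart (chr5:52083750-52255039 and chr5:52285170-52390609). They moved in opposite directions. ITGA1 was at 5.21, 5.39 and 6.19 CPM in GFP, 8.78, 9.42 and 7.68 in ID1, 12, 14.1 and 12.4 in ID2, 10.3, 8.47 and 8.53 in ID3 and 6.13, 6.04 and 6.28 in ID4. ITGA2 was at 14.7, 15.6 and 13.3 CPM in GFP, 7.86, 8.07 and 6.04 in ID1, 5.90, 6.58 and 5.67 in ID2, 7.55, 7.68 and 8.38 in ID3 and 13.3, 14 and 15.1 in ID4. For ID1, ID2 and ID3 every library was above GFP in ITGA1 and below it in ITGA2, whereas the ID4 libraries overlapped with GFP in both genes. ITGA1 rose by 0.60 ± 0.14, 1.21 ± 0.13 and 0.68 ± 0.14 on the log2 scale (edgeR adjusted p = 0.00271, 2.18e-07 and 0.000697), and the value for ID4 was 0.14. ITGA2 fell by 1.01, 1.25 and 0.91 (standard errors 0.12, 0.13 and 0.12, edgeR adjusted p = 2.48e-06, 7.37e-08 and 7.77e-06), and the value for ID4 was -0.04. Tested directly, ITGA2 was lower than in the ID4 libraries by 0.96 for ID1, 1.21 for ID2 and 0.86 for ID3 (edgeR adjusted p = 2.07e-05, 4.92e-07 and 6.34e-05).

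ITGA6 (chr2:173292082-173371187, plus strand) encodes the laminin-binding alpha 6 chain, which pairs with beta 1 or beta 4 and is a surface marker of glioma stem cells. Its libraries were at 8.94, 10.4 and 11 CPM in GFP, 11.3, 12.2 and 15.1 in ID1, 4.45, 4.64 and 4.50 in ID2, 8.18, 8.82 and 8.60 in ID3 and 12.7, 11.5 and 11.7 in ID4. The ID2 libraries lay far below all others. Against GFP, ITGA6 fell by 1.14 on the log2 scale for ID2 (standard error 0.14, edgeR adjusted p = 1.19e-06), while the values of 0.32, -0.26 and 0.24 for ID1, ID3 and ID4 were not called. It was also lower in ID2 than in ID1, ID3 and ID4, by 2.76-fold, 1.84-fold and 2.61-fold (edgeR adjusted p = 9.35e-08, 0.000174 and 1.98e-07). ITGB4, the other partner of alpha 6, was at 13 to 42 counts and was called in no comparison.

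Since E-boxes are the sites of the E proteins that ID proteins hold back, RefSeq promoter windows on GRCh38.p14, from 250 bases before to 50 after the most upstream start, were searched for CANNTG, which reads the same on both strands. A window was found for 20 of the 28 genes, and none was in the table used here for ITGB2, ITGB3, ITGB4, ITGA3, ITGA7, CDH13, CDH24 and CADM1. Of the 20, 9 held CANNTG (45%), where 68.7% of all 35116 windows did. These shares are not on the same footing. Only the most upstream window of each of the 20 genes was taken, and all windows were not reduced in this way. The windows of the collagen receptor neighbours that moved apart, and that of ITGA6, which held 7 matches, are shown in 5′ to 3′ direction on the plus strand, with CANNTG in capitals.
ITGA1, chr5:52787666-52787965: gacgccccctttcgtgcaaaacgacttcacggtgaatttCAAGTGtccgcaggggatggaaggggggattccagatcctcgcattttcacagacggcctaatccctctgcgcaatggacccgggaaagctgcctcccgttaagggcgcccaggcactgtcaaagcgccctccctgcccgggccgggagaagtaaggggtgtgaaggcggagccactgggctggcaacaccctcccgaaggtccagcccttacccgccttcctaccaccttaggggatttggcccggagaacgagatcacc
ITGA2, chr5:52989102-52989401: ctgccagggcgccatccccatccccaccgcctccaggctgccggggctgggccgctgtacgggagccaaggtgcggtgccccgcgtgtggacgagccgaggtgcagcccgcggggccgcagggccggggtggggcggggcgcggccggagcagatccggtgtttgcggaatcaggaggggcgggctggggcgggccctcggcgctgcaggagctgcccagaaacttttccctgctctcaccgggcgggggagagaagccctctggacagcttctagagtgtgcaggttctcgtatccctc
ITGA6, chr2:172427086-172427385: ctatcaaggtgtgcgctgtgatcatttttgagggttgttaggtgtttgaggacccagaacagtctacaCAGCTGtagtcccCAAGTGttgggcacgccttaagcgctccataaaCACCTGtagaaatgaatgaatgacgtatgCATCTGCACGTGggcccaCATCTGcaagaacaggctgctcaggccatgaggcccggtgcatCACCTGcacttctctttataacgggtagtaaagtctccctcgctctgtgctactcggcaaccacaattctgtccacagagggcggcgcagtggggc
ITGA1 held 1 match and ITGA2 none, and no match was found in the windows of ITGAV, ITGB5, ITGB8, ITGB1 or CLDN14 either. A match is a run of letters in this window and says nothing of a factor bound there.

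ITGB2 (chr21:46305868-46351904, minus strand) encodes the beta 2 chain of the leukocyte integrins. It had 9, 10 and 9 counts in GFP, 69, 61 and 64 in ID1, 187, 187 and 164 in ID2, 58, 36 and 53 in ID3 and 64, 53 and 84 in ID4. Every ID-labelled library exceeded GFP several times over, and the ID2 libraries were the highest. In levels this was 0.739 ± 0.0982 CPM (SD, n = 3) in GFP and 4.63 ± 0.126, 12.6 ± 1.17, 3.52 ± 0.827 and 5.35 ± 0.875 CPM for ID1 to ID4. The rise was 6.15-fold, 17.2-fold, 4.67-fold and 7.22-fold, or 2.62 ± 0.25, 4.10 ± 0.22, 2.22 ± 0.26 and 2.85 ± 0.25 on the log2 scale (edgeR adjusted p = 4.54e-08, 1.14e-12, 9.78e-07 and 1.24e-08). The alpha chains that pair with beta 2 were nearly uncounted, with means of 0.87 (ITGAL), 0.20 (ITGAM) and 0.13 counts (ITGAX) over the 15 libraries. The leukocyte marker PTPRC had at most 8 counts in a library and mean levels of 0.185 CPM in GFP, 0.0718 in ID1, 0.236 in ID2, 0.281 in ID3 and 0.0511 in ID4. The 15 markers of other cell types, of which 3 had a mean of at least 5 counts and the keratin gene KRT5 had none, summed to 10.9 to 14.3 CPM in GFP libraries, 16.6 to 19.6 in ID1, 24.4 to 37.6 in ID2, 18 to 27.7 in ID3 and 13.5 to 18.2 in ID4. Most of this sum was SNAP25, a synaptic gene, with 8.4 CPM in GFP and 27.8 in ID2. Of the other measured markers, SYT1, also synaptic, was at log2 fold changes of -0.70 (called), -0.18, -0.09 and -0.34 for ID1 to ID4 and EPCAM had 3 to 15 counts and no call. The part of these markers in the values of ITGB2 was not tested. ITGAE, the alpha chain of a receptor for E-cadherin on lymphocytes, had 226 to 364 counts and was called in no comparison, and its partner ITGB7 was below the limit.

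CADM1 showed the largest decrease among the 28 genes in each comparison with GFP. It lies on chromosome 11 (chr11:115039938-115375675, minus strand) and encodes a cell adhesion molecule also known as a tumor suppressor of lung cancer. The GFP libraries held 361, 306 and 303 counts, the ID1 libraries 80, 53 and 63, the ID2 libraries 27, 22 and 26, the ID3 libraries 35, 48 and 38 and the ID4 libraries 21, 17 and 15. The lowest GFP library thus held more than 3 times the counts of any ID-labelled library. Mean levels were 25.4 ± 0.0392 CPM (SD, n = 3) in GFP, 4.65 ± 0.661 in ID1, 1.76 ± 0.224 in ID2, 2.89 ± 0.497 in ID3 and 1.43 ± 0.255 in ID4. CADM1 was 5.52-fold, 14.2-fold, 8.89-fold and 17.8-fold lower for ID1 to ID4, with log2 fold changes of -2.46 ± 0.14, -3.83 ± 0.16, -3.15 ± 0.15 and -4.16 ± 0.17 (edgeR adjusted p = 4.36e-12, 1.28e-14, 2.75e-13 and 2.76e-14). The ID groups also differed from each other. CADM1 was higher in ID1 than in ID2 by 1.37 ± 0.19 on the log2 scale and than in ID4 by 1.69 ± 0.20, and higher in ID3 than in ID4 by 1.00 ± 0.22 (edgeR adjusted p = 2.2e-05, 8.4e-06 and 0.00467).

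CADM4 (chr19:44126520-44144002, minus strand), a relative of CADM1 known from myelinating glia, was near the floor, with 15, 7 and 6 counts in GFP, 17, 13 and 12 in ID1, 4, 3 and 3 in ID2, 5, 1 and 5 in ID3 and 6, 8 and 8 in ID4. The ID2 and ID3 libraries were below all GFP and ID1 libraries. The direct comparison of ID1 with ID2 gave a log2 fold change of 2.01 ± 0.47 (edgeR adjusted p = 0.00417), which held under all alternatives in which the gene was tested. Against GFP the values of -1.58 ± 0.51 for ID2 and -1.46 ± 0.50 for ID3 (edgeR adjusted p = 0.0185 and 0.0316) were calls that several settings did not keep. With all libraries kept, the ID2 call was missed with DESeq2 (adjusted p = 0.0548), and the ID3 call with DESeq2 (0.0861), without a filter on counts (0.0801) and with only the 2 groups compared (0.0681). Without GFP replicate 1 they were -1.17 and -1.05 (adjusted p = 0.139 and 0.197). The ID2 call was also missed without ID2 replicate 2 (0.0566) or 3 (0.0541), and the ID3 call without ID3 replicate 2 (0.147). The values for ID1 (0.43) and ID4 (-0.30) were not called.

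Among the cadherins, CDH2 (chr18:25512843-25757910, minus strand), the gene of N-cadherin, was at 186.7, 199.5 and 200.9 CPM in GFP and at 197.1, 213.1 and 200.0 CPM in ID1. It was at 243.8, 254.1 and 232.9 CPM in ID2, 201.7, 195.0 and 205.9 in ID3 and 230.7, 217.9 and 222.4 in ID4. The ID2 libraries were above all those of GFP, ID1 and ID3, and the ID1 and ID3 libraries overlapped with GFP. CDH2 was higher by 0.33 ± 0.05 on the log2 scale for ID2 against GFP (edgeR adjusted p = 4.47e-05), and by a 1.24-fold change for ID2 against ID3 (adjusted p = 0.000283). The 0.19 ± 0.05 for ID4 (adjusted p = 0.0144) was lost without GFP replicate 1 (0.0812) or ID4 replicate 1 (0.0824). CDH13 (chr16:82660570-83834245, plus strand) encodes T-cadherin, which has no cytoplasmic tail and is held by a lipid anchor. It was at 31.1, 30.7 and 26.4 CPM in GFP, 25, 19.9 and 20.8 in ID1, 20.7, 22.5 and 23.9 in ID2, 30.7, 30.3 and 28.5 in ID3 and 25.7, 23 and 24.4 in ID4. The ID3 libraries were level with GFP and the others below it. CDH13 fell by 0.44 for ID1 and 0.38 for ID2 (standard error 0.09 each, edgeR adjusted p = 0.00148 and 0.003), was lower by the same sizes against ID3 (0.00432 and 0.00779), and was at 0.00 for ID3 against GFP. The value of -0.27 ± 0.09 for ID4 (adjusted p = 0.0436) did not pass without GFP replicate 1 or 2 (0.141 each) or without any of the 3 ID4 libraries (0.0517 to 0.154), nor with all libraries kept in DESeq2 (0.0553), limma (0.0519) or a fit with the replicate block (0.0535). CDH18, a cadherin of the nervous system, had 94, 70 and 53 counts in GFP, 95, 68 and 66 in ID1, 92, 128 and 101 in ID2, 118, 91 and 88 in ID3 and 75, 92 and 82 in ID4. Its log2 fold changes of -0.08, 0.42, 0.30 and 0.24 for ID1 to ID4 were not called, and CDH24, at 39 to 89 counts, was called in no comparison either.

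CLDN14 (chr21:37832919-37948867, minus strand), a claudin of the inner ear and kidney, rose in the libraries labelled ID1. It had 4, 5 and 8 counts in GFP, 96, 80 and 79 in ID1, 8, 18 and 11 in ID2, 13, 6 and 16 in ID3 and 8, 2 and 5 in ID4. The ID1 libraries exceeded every other library at least 4 times. The log2 fold change was 3.72 ± 0.34 against GFP (13.2-fold, edgeR adjusted p = 2.6e-08), and 2.76 ± 0.29, 2.85 ± 0.30 and 3.87 ± 0.35 against ID2, ID3 and ID4 (6.99e-07, 1.26e-06 and 1.16e-07). The values of 0.96, 0.87 and -0.16 for ID2 to ID4 against GFP were not called. CLDN12 (chr7:90013035-90142716, plus strand), which encodes a claudin found in many tissues, was at 13.4, 12.6 and 11.8 CPM in GFP, 16.7, 18.7 and 16.3 in ID1, 14.4, 14.1 and 11.9 in ID2, 15.5, 15.2 and 15.6 in ID3 and 14, 16.1 and 16.7 in ID4. The ID2 libraries overlapped with GFP, and the others were above it. CLDN12 was higher for ID1 by 0.43 ± 0.10 (edgeR adjusted p = 0.0045). For ID4 the value was 0.30 ± 0.11 (adjusted p = 0.0494), lost without any 1 of the 3 GFP libraries (0.0599 to 0.148), without ID4 replicate 2 (0.132) or 3 (0.179), and under 4 other settings. The end of CLDN12 overlaps PTTG1IP2 on the same strand, so reads there cannot be told apart.

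CLDN22 (chr4:184239253-184241429, minus strand) had 141, 147 and 134 counts in GFP, 198, 178 and 225 in ID1, 176, 197 and 201 in ID2, 212, 195 and 170 in ID3 and 151, 138 and 154 in ID4. In CPM the ID1, ID2 and ID3 libraries all lay above GFP and the ID4 libraries within or near its range. CLDN22 was called against GFP for ID1 only. That rise of 0.35 ± 0.12 (edgeR adjusted p = 0.0332) did not pass without GFP replicate 1 (0.168) or 3 (0.0634) or ID1 replicate 3 (0.211). The end of the gene lies over WWC2 on the opposite strand. CLDN7, an epithelial claudin whose gene end overlaps ELP5 on the opposite strand, had 135, 115 and 122 counts in GFP, 172, 129 and 128 in ID1, 163, 138 and 120 in ID2, 155, 107 and 138 in ID3 and 142, 125 and 124 in ID4. All of its groups overlapped with GFP, and the log2 fold changes were 0.04, 0.03, -0.05 and 0.10. CLDN4 and CLDN15 had 6 to 25 and 55 to 95 counts, and none of these 3 claudins was called in any comparison.

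**Figure D3:**
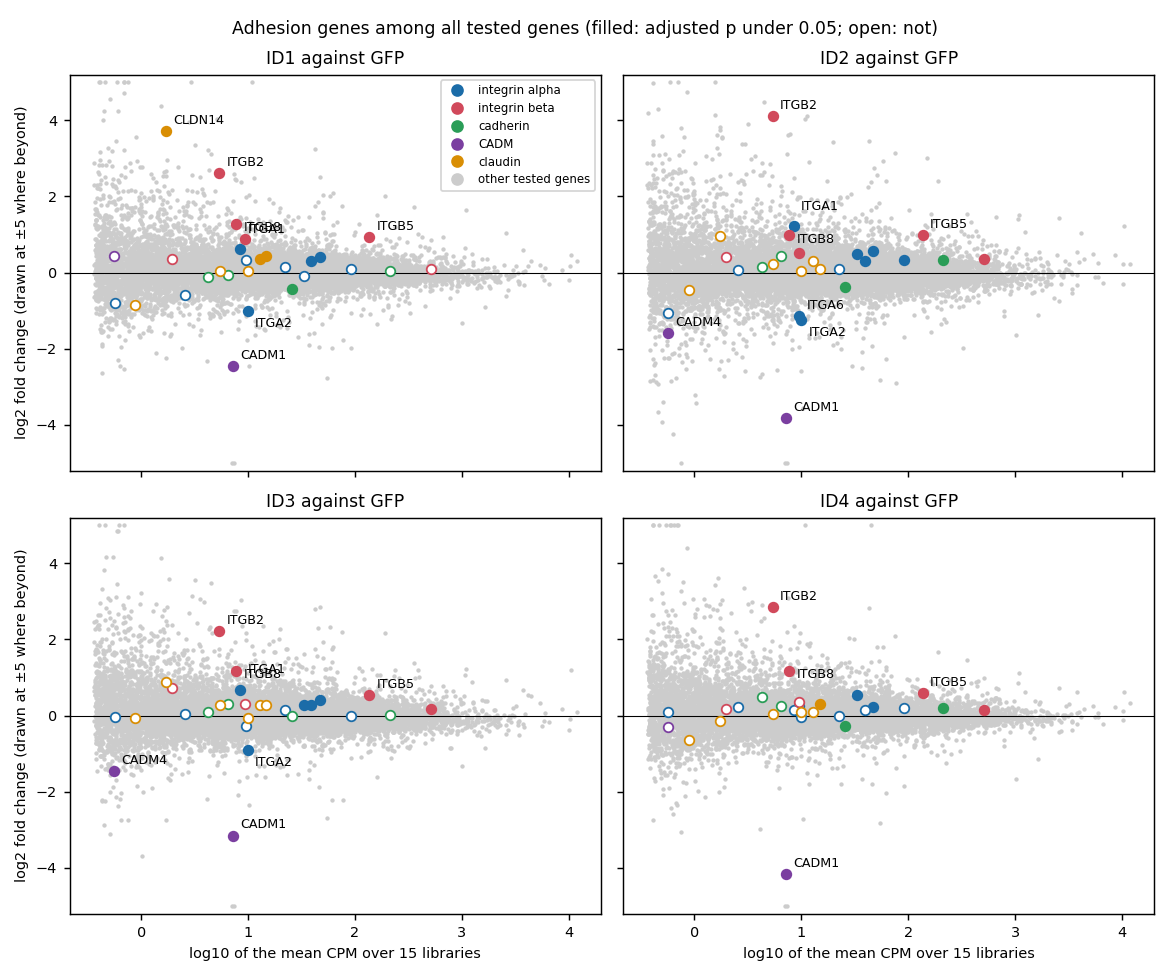
Log2 fold change against GFP (vertical axes) and log10 of the mean CPM over 15 libraries (horizontal axes) of all 13665 tested genes (grey) and the 28 adhesion genes (coloured by family, filled where called), with 1 panel per ID-labelled group. CADM1 is the lowest member in each panel (-2.46 to -4.16), and ITGB2 runs from 2.22 to 4.10. Some other genes lie farther out than either, and most other members lie within 1 log2 unit of 0.

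Compared directly, the ID-labelled groups differed in 12 of the 28 genes between ID1 and ID2 (17.9% of all tested genes were called), 8 between ID1 and ID3 (8.78%), 6 between ID1 and ID4 (4.57%), 9 between ID2 and ID3 (14.2%), 7 between ID2 and ID4 (17.7%) and 7 between ID3 and ID4 (10.8%). Of these calls, 9, 5, 5, 7, 7 and 2 held under every alternative in which the gene was tested. ITGB2, the leukocyte beta chain, was 2.79-fold lower in ID1 than in ID2, and it was higher in ID2 than in ID3 by 1.88 ± 0.16 and than in ID4 by 1.25 ± 0.15 on the log2 scale (edgeR adjusted p = 5.36e-07, 4.29e-08 and 3.94e-06). ITGA1 was higher in ID2 than in ID1, by 1.52-fold, than in ID3, by 0.53 ± 0.12, and than in ID4, by 1.07 ± 0.13 (edgeR adjusted p = 0.00133, 0.00485 and 3.35e-06). ITGA7 was lower in ID1 than in ID2 by 1.5-fold and than in ID4 by 1.57-fold (edgeR adjusted p = 4.11e-05 and 2.24e-05). ITGB5 was higher in ID1 than in ID3 and ID4 by 0.39 ± 0.05 and 0.32 ± 0.05, and higher in ID2 than in either by 0.44 ± 0.05 and 0.38 ± 0.05 (edgeR adjusted p = 6.38e-05, 0.000489, 6.79e-06 and 2.97e-05). Between ID3 and ID4 the calls that held were those of CADM1 and ITGA2.

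Genes whose proteins act with these families, at the membrane or beneath it, were followed at the RNA level through 4 lists. The cadherin list also held transcription factors. Of 28 talins, kindlins and other partners of integrins, 9 were higher and 1 was lower for ID1 against GFP, 13 and 3 for ID2, 10 and 3 for ID3 and 9 and 2 for ID4, with medians of 0.13, 0.08, 0.02 and 0.04. These were 35.7%, 57.1%, 46.4% and 39.3% of the list, where 21.6%, 33.8%, 27.4% and 20.6% of all tested genes were called. TLN2, a talin that links beta chains to actin, rose by 1.46, 1.36, 1.14 and 1.25 on the log2 scale (standard error 0.10 each). TNS3, a tensin of the same sites, rose by 0.67, 0.63, 0.90 and 0.72 (0.19 each), and TNS1 by 1.89, 1.21 and 2.27 for ID1, ID2 and ID4 at 3 to 27 counts, with 0.83 for ID3 not called. The focal adhesion kinase PTK2, named here after its values were seen, was lower by a log2 change of -0.36, -0.23 and -0.23 for ID2 to ID4, with -0.20 for ID1 not called.

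Of 15 measured genes of the cadherin list, 4, 5, 2 and 3 were higher and 0, 1, 1 and 1 lower for ID1 to ID4 (26.7%, 40%, 20% and 26.7%), shares close to those of all tested genes. TWIST1, a factor known to favour N-cadherin over E-cadherin, rose by 0.44, 0.73 and 0.31 for ID1 to ID3, with 0.21 for ID4 not called. The other transcription factors of the list did not share this rise. SNAI2 was called higher for ID2 only (0.30), ZEB2 was called lower for ID4 only (-0.35), and SNAI1, ZEB1 and TWIST2 were not called against GFP. ADAM10, a protease that sheds N-cadherin, rose by 0.37, 0.54 and 0.37 for ID1, ID2 and ID4, with 0.23 for ID3 not called. CTNNB1, the gene of beta-catenin and also named after its values were seen, was higher by 0.24, 0.32, 0.30 and 0.24 (standard error 0.04 each). Among 12 measured nectins and scaffolds of CADM proteins, 1, 1, 1 and 3 were higher and 0, 2, 2 and 1 lower (8.33%, 25%, 25% and 33.3%). Of all tested genes, 21.6%, 33.8%, 27.4% and 20.6% were called. The shares of this list rest on too few genes to be read as a difference. Afadin (listed as MLLT4) rose by 0.76 ± 0.09 for ID4, and MPP3, a scaffold that binds CADM1, by 0.70 ± 0.19 for ID3. PVR was called lower for ID2 (-0.40) and ID3 (-0.22). NECTIN3 (listed as PVRL3) was called higher for ID2 (0.24) and lower for ID3 (-0.35) and ID4 (-0.21).

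Of 10 measured tight junction genes, 2, 2, 3 and 1 were higher and 3, 4, 3 and 2 lower for ID1 to ID4 (50%, 60%, 60% and 30%), beside the same 21.6%, 33.8%, 27.4% and 20.6% of all tested genes. These shares, too, rest on too few genes to be read as a difference. TJP1, a scaffold that binds claudins and was named after its values were seen, rose by 0.44, 0.42, 0.33 and 0.47 on the log2 scale (standard error 0.10 each). Other genes of this list fell, and 2 of them are named here, also after their values were seen. JAM2 was called lower for ID1 (-0.39) and ID2 (-0.48). F11R was called lower for ID2 (-0.48) and ID3 (-0.44), with -0.20 for ID1 and -0.12 for ID4 not called. CGNL1, a cingulin relative, rose by 1.18 ± 0.40 for ID3 at 5 to 25 counts. Calls for partner genes were made by the same edgeR fit and adjustment, and they were not recomputed under the alternatives.

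**Figure D4:**
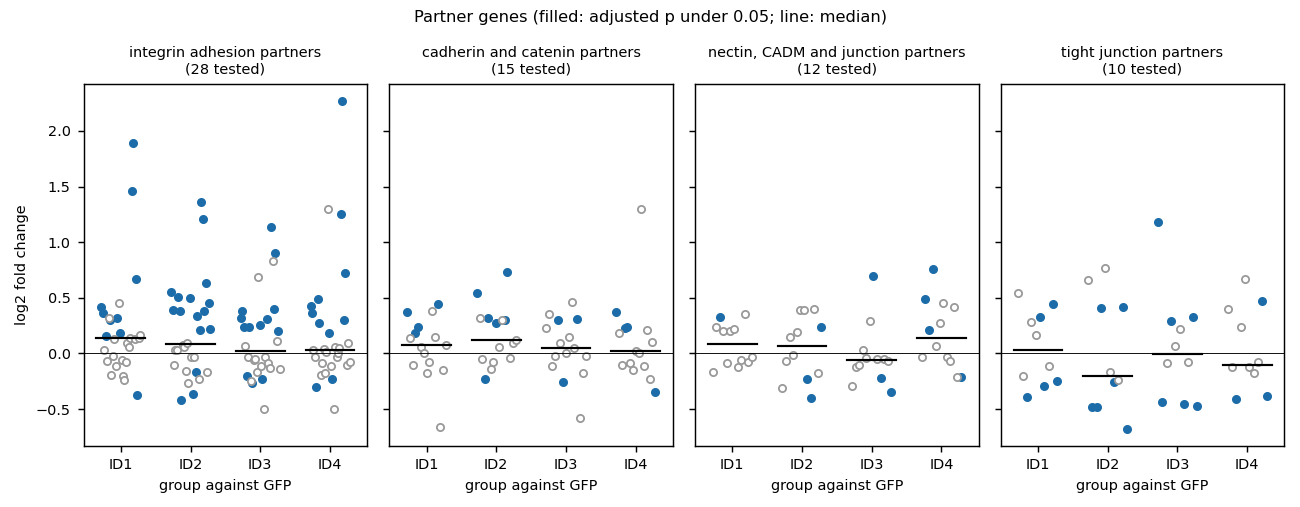
Log2 fold change against GFP (vertical axis) of the measured genes of the 4 partner lists (panels) for ID1 to ID4 (horizontal axes), filled where the adjusted p was under 0.05, with the median of each list as a line. The medians lie between -0.21 and 0.14, and the highest filled points of the integrin list are TNS1 and TLN2.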

How the data were processed

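The paper's RNA-seq deposit was used, 15 libraries of U87MG cells in 5 labelled groups of 3. Library preparation used the QuantSeq 3′ chemistry, which reads the ends of polyadenylated transcripts, and the company eBiogen did the processing on hg19 (GRCh37). The submitters' processing notes name Bowtie2 and BWA with no role or version, and the counting tool and its use of strand are not given in the sources used here. The authors deposited raw counts per gene symbol and log2 values normalized between libraries. Of the rows, 1561 carry a repeated symbol, and no column was left unused for want of a sample.

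The 28 members, the partner lists and the tests were chosen with earlier results of these data known. Counts were tested with edgeR 4.0.16 in R 4.3.3 (TMM factors 0.978 to 1.021, common dispersion 0.00463) over the 13665 rows with a mean of at least 5 counts. This limit, that of the members, was used so that each of them entered the test. Standard errors were taken from the F statistic. The deposited log2 values were used in limma 3.58.1 as an alternative. DESeq2 1.42.0 was another, as were other filters, only the 2 groups compared, a replicate block, a threshold of 1 on the log2 fold change, and each library left out. The edgeR step was tested on simulated counts. Replicates of every group differed by more than sampling noise. Members were described library by library where they were among the 3 of their family with the highest mean CPM, a CADM gene, or among the largest calls without overlap (5 per comparison with GFP and 2 per comparison of ID groups). Partner genes were named where they had the largest calls of their list, except for an item that is not reported here. Gene positions came from GENCODE lifted to GRCh37, older symbols were matched through a name table, and promoter windows came from RefSeq. Figures were drawn with matplotlib 3.10.9.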

Additional observations from a re-analysis of the deposited data

How the results depend on the processing

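Of 1183 values recomputed for called log2 fold changes of the named members, 1087 kept their direction and their call, 96 kept the direction only and none reversed. Counts by family stayed within 1.5 times in 214 of 260 cases. The number of members called fell to 5, 6, 4 and 3 for ID1 to ID4 against GFP where a log2 fold change over 1 was asked for as well, beside 464, 671, 459 and 382 of the 13665 tested genes. With each library left out in turn it lay at 12 to 14 (ID1 against GFP), 15 to 17 (ID2), 9 to 12 (ID3), 5 to 9 (ID4) and 4 to 6 (ID3 against ID4). The libraries that moved the ID4 count most were GFP replicate 1 (5 left) and ID4 replicates 1 and 2 (6 each), and those that moved ID3 against ID4 were ID3 replicate 2 and ID4 replicates 1 and 3 (4 each). Libraries with the same number did not deviate together (correlations of -0.19 to 0.18 over the tested genes), and a replicate block gave 13, 16, 12 and 8 called members against GFP. Values that changed sign were not called. Most were near 0, while those of CADM4 and CLDN14 for ID4 rest on few counts and ranged more widely. CDH13 for ID3 was 0.00 with the upper 50% of rows and with the replicate block, 0.01 without a filter and with limma, and -0.07 to 0.03 over all settings. With a library left out, CADM4 for ID4 ran from -0.49 to 0.11, CDH18 for ID1 from -0.21 to 0.06, CDH2 from -0.01 to 0.06 for ID1 and -0.03 to 0.04 for ID3, CLDN14 for ID4 from -0.63 to 0.22, CLDN7 from -0.05 to 0.09, -0.11 to 0.14 and -0.14 to 0.08 for ID1 to ID3, ITGA2 for ID4 from -0.10 to 0.01 and ITGA3 for ID3 from -0.08 to 0.04. The cause of these shifts was not tested. CADM4, ITGA4, CLDN4 and the GFP values of ITGB2 and CLDN14 rest on few counts, which limits their precision, and the filter with the upper 50% of rows leaves out the lowest of them.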
